A study of Mus musculus with 6 samples.

Results

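Strong NF-YA peaks to which no gene was assigned were examined in cultured mouse muscle stem cells (MuSCs). They were selected on level, as peaks with no gene identifier and a mean of at least 20 normalised reads over the 3 NF-YA libraries. The rule gave 656 of 9056 peaks, out of 2865 peaks without a gene. Another 2209 peaks without a gene were below this limit and are named weak peaks here, and 3016 peaks with a gene reached it. NF-YA was mapped by CUT&RUN, in which an antibody tethers micrococcal nuclease to its target in permeabilised cells and the cut DNA is sequenced. The cells were wild type MuSCs of C57BL/6 mice in an activated/proliferating state, taken from male and female mice of 8 to 20 weeks, sorted and then expanded in culture. There were 3 libraries with an antibody against NF-YA and 3 with mouse IgG, but IgG values were not analysed here. The libraries hold DNA only, so the label MuSC could not be checked against marker expression, and a peak gives no information on the activity of a gene.

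NF-Y is a trimer in which NF-YB and NF-YC form a histone-like dimer and NF-YA reads the pentamer CCAAT. It is known best from promoters, where CCAAT boxes lie a short way upstream of the transcript start, and it also occupies distal elements. The authors assigned a peak to the nearest gene only if a transcription start site (TSS) lay within 10000 bp. Peaks without a gene are therefore distal to the listed gene starts by definition, and their distance from those starts is not a finding. Levels chose the peaks and are given as a description without a test. Sequence and position relative to other annotated transcripts were not used by the rule.

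The following sequences carry the box arrangements that the values below refer to. They were picked for a high level, a gene of the lists below or the lack of a box. Each is the stretch of fixed width inside the peak with the most CCAAT boxes, taken from RefSeq's GRCm38 (mm10), in lower case with every CCAAT or its reverse complement ATTGG in capitals. At transcript starts the strand of the transcript is shown.
*Kat6b* internal start (chr14:21500456-21500556, plus strand): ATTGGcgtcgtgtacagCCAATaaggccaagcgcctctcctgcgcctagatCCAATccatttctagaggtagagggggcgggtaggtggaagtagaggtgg
Between genes, nearest *Mir148a* (chr6:51178346-51178446, plus strand): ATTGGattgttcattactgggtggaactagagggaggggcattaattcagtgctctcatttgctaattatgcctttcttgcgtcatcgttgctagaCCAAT
Between genes, upstream of *Myod1* (chr7:46337478-46337578, plus strand): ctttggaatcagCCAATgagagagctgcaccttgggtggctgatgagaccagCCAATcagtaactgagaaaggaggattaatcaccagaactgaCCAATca
*Hdac4* internal start (chr1:92180450-92180550, minus strand): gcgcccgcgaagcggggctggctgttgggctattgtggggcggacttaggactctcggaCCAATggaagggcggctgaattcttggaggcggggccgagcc
*Foxred2* internal start (chr15:77945957-77946057, minus strand): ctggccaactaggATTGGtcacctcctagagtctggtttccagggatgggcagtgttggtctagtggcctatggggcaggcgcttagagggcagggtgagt
*Nfyc* internal start (chr4:120815804-120815904, minus strand): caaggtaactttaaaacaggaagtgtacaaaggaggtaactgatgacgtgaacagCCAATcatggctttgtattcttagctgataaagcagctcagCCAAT
*Igf1r* intron (chr7:68129132-68129232, plus strand): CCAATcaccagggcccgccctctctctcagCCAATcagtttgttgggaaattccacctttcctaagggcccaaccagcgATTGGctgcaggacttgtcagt
Between genes, nearest *Mef2a* (chr7:67385437-67385537, plus strand): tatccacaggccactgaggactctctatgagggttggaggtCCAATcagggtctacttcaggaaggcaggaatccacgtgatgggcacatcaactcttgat
Between genes, nearest *Sparc* (chr11:55392628-55392728, plus strand): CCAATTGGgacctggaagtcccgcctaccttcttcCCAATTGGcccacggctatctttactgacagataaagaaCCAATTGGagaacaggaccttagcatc
*Enox1* intron, no CCAAT (chr14:77485126-77485226, plus strand): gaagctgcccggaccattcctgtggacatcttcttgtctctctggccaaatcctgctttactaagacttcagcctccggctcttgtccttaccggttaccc

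The strongest of the 656 peaks lay at an internal transcript start of *Kat6b*, which encodes a histone acetyltransferase. The region chr14:21500355-21500989 reached 447, 522 and 565 normalised reads (replicates 1, 2 and 3 in this and every later series of 3 values), averaging 511 ± 59.7 (SD, n = 3). It ranked 23 among all 9056 peaks and was highest in replicate 3. It held 8 CCAAT boxes, 3 of them in the sequence shown, and its centre was 181 bp upstream of the start of a *Kat6b* transcript that begins 19419 bp from the 5' end of the gene. This transcript is annotated as a retained intron and not as protein-coding.

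The next peaks lay between genes. A region 91407 bp from *Mir148a*, a microRNA gene, had 288, 366 and 347 normalised reads (chr6:51178108-51178898, mean 334 ± 40.7, SD, n = 3). It contained 5 boxes, none of them within 50 bp of the centre. A region with 284, 294 and 319 normalised reads (chr7:46337214-46337841, mean 299 ± 18.03, SD, n = 3) had *Myod1* as the nearest protein-coding gene. *Myod1* encodes the myogenic determination factor MYOD, and its start was 38946 bp downstream, while the start nearest of all belonged to the long noncoding RNA 1700025L06Rik at 11526 bp. Of its 4 boxes, 3 were in the centre window and on the same strand. The link to *Myod1* was drawn after the values were seen, because the rule for naming used the nearest start of any kind.

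*Hdac4*, encoding a histone deacetylase that restrains MEF2 factors, had 198, 219 and 222 normalised reads at an internal start (chr1:92180225-92180774, mean 213 ± 13.1, SD, n = 3). *Foxred2*, an oxidoreductase of the endoplasmic reticulum, had 161, 163 and 207 at an internal start (chr15:77945770-77946243, mean 177 ± 26). The *Foxred2* transcript that begins there is annotated as a retained intron and not as protein-coding. The other 5 of the 10 strongest peaks were between genes, with means of 182 to 231. Their nearest protein-coding starts were *Slc6a6* at 63942 bp, *Sik1* at 74288 bp, *Irf2bpl* at 57955 bp, *Olfr288* at 14013 bp and *Bahcc1* at 26387 bp. The library ranges of neighbours in this order overlapped or touched from the second to the tenth peak, so their order was not resolved.

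**Figure D1:**
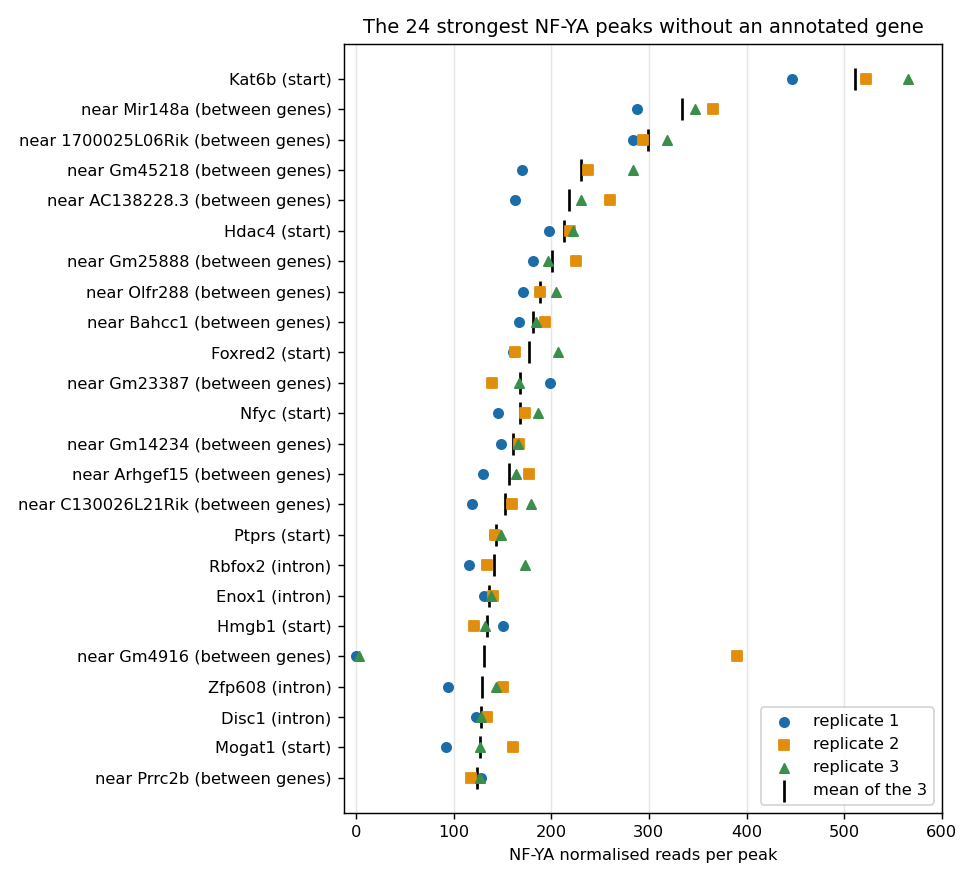
Normalised NF-YA reads (x axis) in replicates 1, 2 and 3 for the 24 strongest peaks without a gene (y axis), with the mean as a black bar. The *Kat6b* start lies apart at 447 to 565, and 1 peak near *Gm4916* has 390 in replicate 2 against 0 and 3 in the others.

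Over all 656 peaks, the medians were 30, 34 and 32 normalised reads in replicates 1, 2 and 3, corresponding to about 45, 23 and 31 reads. Replicate 1 had the lowest value of the 3 libraries in 338 peaks (51.5%), compared with 42.8% of the strong peaks with a gene. The study lists shorter reads and fewer reads in total for replicate 1 than for replicates 2 and 3. Whether this played a part was not tested. All 3 libraries reached 20 in 429 peaks (65.4%). The median coefficient of variation (CV) over the libraries was 21.4%, where counting alone gives 18.2% by formula. Between the highest and lowest library, 126 peaks (19.2%) differed more than 2-fold. Of strong peaks with a gene, which had higher levels, 7.99% did so. The spread narrowed with level, from a median CV of 24.98% in the 302 peaks with means below 30 to 12.2% in the 42 peaks whose mean reached 100.

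At the limit, 19 peaks had a mean of exactly 20, with single values from 9 to 33, and CCAAT lay in the centre window of 12. Just outside, 14 peaks had a mean of 19.7, with single values from 11 to 30, and 9 had the box. Inside the limit, an *Nf2* intron peak had 18, 25 and 17 normalised reads (chr11:4826264-4826476), and outside it a *Uvrag* intron peak had 23, 21 and 15 (chr7:98970848-98971154). The single values on both sides of the limit overlapped.

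In 2 peaks, over 90% of the summed value came from 1 library. A region on the X chromosome had 0, 390 and 3 normalised reads (chrX:128363622-128363760), and one on chromosome 3 had 0, 0 and 61 (chr3:42824268-42824385). Their nearest transcript starts were pseudogenes, and both lay entirely in soft-masked sequence, meaning that the reference marks it as repeats. Neither contained CCAAT. A value of 0 stands for 0 reads, which by counting error allows an expected count of up to 3 reads, or 2.01, 4.43 and 3.06 normalised reads in replicates 1, 2 and 3. Their sequences are shown because they are the only such peaks among all 3672 with a mean of at least 20.
Replicate 2 peak (chrX:128363641-128363741, plus strand): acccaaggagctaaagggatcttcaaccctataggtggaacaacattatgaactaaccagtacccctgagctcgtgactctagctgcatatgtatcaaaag
Replicate 3 peak (chr3:42824277-42824377, plus strand): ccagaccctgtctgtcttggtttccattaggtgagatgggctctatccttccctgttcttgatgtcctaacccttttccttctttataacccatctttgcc

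To determine whether the peaks carry the recognition sequence of NF-Y, CCAAT was searched on both strands within 50 bp of the peak centre, the centre window. The box was present in 367 of 656 peaks (55.9%, 95% Wilson interval 52.1 to 59.7). In windows of equal width 1000 bp to the left and right it was present in 11.3% and 9.91%. The difference was 44.7 percentage points on the left (95% interval 40.1 to 48.9) and 46.0 on the right (41.4 to 50.3). A longer consensus, with a pair of A or G before CCAAT and then C or G and A or G, was found in 24.8% at the centre and in 0.762% and 0.610% of the flanks. Counted over the whole peak, 505 of 656 peaks (77.0%) contained CCAAT.

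The share with the box at the centre lay between those of weak peaks without a gene and strong peaks with a gene. Weak peaks without a gene had the box at the centre in 40.7%, which was 15.2 percentage points fewer than the strong ones (interval of the difference 10.9 to 19.5). Strong peaks with a gene had it in 71.2%, and the difference was -15.3 points (-19.4 to -11.2). Most of these have their listed TSS within 1000 bp. Against the 756 strong peaks with a gene farther away, with 61.6%, the difference was -5.70 points (-10.8 to -0.551). When all peaks within 1000 bp of any transcript start were left out, the difference from strong peaks with a gene was -3.11 points (-9.00 to 2.83), so it no longer exceeded its error. The difference from weak peaks was 13.9 points in that case (9.26 to 18.5). Strong peaks were longer, with a median of 295 bp against 142 bp in weak ones, and among peaks of 200 to 400 bp the difference from weak peaks was 23.8 points (17.3 to 29.98).

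Repeated boxes were less frequent than at genes. At least 2 boxes in the centre window were found in 12.5% of the peaks, compared with 25.3% of strong peaks with a gene, a difference of -12.8 points (-15.6 to -9.62). Within 20 bp of the centre, there were 7.81 boxes per kb in the 656 peaks, 11.6 in strong peaks with a gene and 5.98 in weak peaks. At 200 to 300 bp from the centre the densities were 1.296, 1.22 and 1.37.

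**Figure D2:**
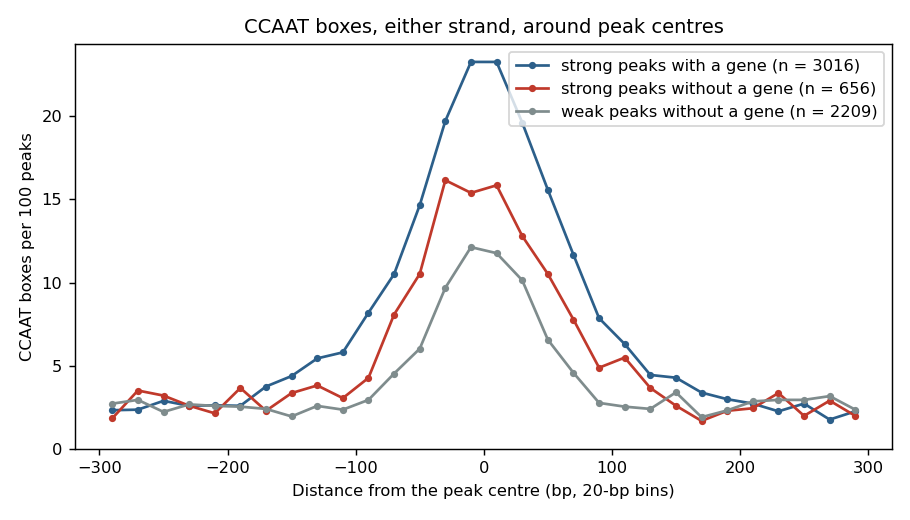
CCAAT boxes per 100 peaks (y axis) in 20-bp bins by distance from the peak centre (x axis), for strong peaks with a gene, strong peaks without a gene and weak peaks without a gene. All 3 curves are highest within 40 bp of the centre, in that order of height, and run together beyond 200 bp. For strong peaks without a gene the highest bin is -40 to -20 bp, with 16.2, next to 15.4 and 15.9 in the bins at the centre.

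The box was also more frequent among the stronger of the 656 peaks, counted over the whole peak. It was found in 67.9% of peaks with means of 20 to below 30 (62.4 to 72.9), 79.3% from 30 to below 50, 91.2% from 50 to below 100 and 92.9% at 100 or more (81.0 to 97.5). At the centre, the shares were 52.3% (46.7 to 57.9), 57.6%, 60.5% and 61.9% (46.8 to 75), and the intervals of the lowest and highest class overlapped. The length of the peaks grew along the same classes, from a median of 247.5 bp to 497.5 bp, and its part in the first series was not tested. By the number of boxes in the whole peak, the median mean was 26.3 normalised reads without a box (n = 151), 28.5 with 1 (n = 284), 37 with 2 (n = 147), 64.7 with 3 (n = 47) and 48 with 4 or more (n = 27). By boxes in the centre window it was 30.3 without a box (n = 289), 32.3 with 1 (n = 285), 38.5 with 2 (n = 68) and 27.2 with 3 or more (n = 14), so neither series rose throughout.

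Where a peak held more than 1 box, the distance between neighbours was measured from start to start. There were 339 pairs of neighbouring boxes, of which 204 (60.2%) were on the same strand. In these, 26 pairs were 30 to 34 bp apart and 21 were 40 to 44 bp apart, compared with 10 at 25 to 29 bp and 5 at 45 to 49 bp. The 18 pairs at 35 to 39 bp included 13 at exactly 39 bp. In strong peaks with a gene, the corresponding shares of 2164 same-strand pairs were 17.3% at 30 to 34 bp, 4.48% at 35 to 39 bp and 14.9% at 40 to 44 bp, and in the 656 peaks 12.7%, 8.82% and 10.3%. By single distances, the most frequent in the 656 peaks was 39 bp, followed by 31 and 32 bp with 7 pairs each. In strong peaks with a gene, 31 and 32 bp were the most frequent, with 112 pairs each, and 41 bp had 91. These counts are few and were not tested. The *Igf1r* and *Nfyc* sequences above show such pairs. In *Igf1r* the first boxes start at 68129132 and 68129162, 30 bp apart, and in *Nfyc* the boxes at 120815804 and 120815845 are 41 bp apart.

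Next, 11 other motifs were counted in the centre window, on both strands, and compared with both other sets. Intervals were widened for 22 comparisons. CAGCTG, an E-box read by myogenic factors such as MYOD, was found in 133 of the 656 peaks (20.3%). Strong peaks with a gene had it in 7.33%, a difference of 12.9 points (8.31 to 18.3), and weak peaks in 24.2% (difference -3.94, -9.17 to 1.89). The general E-box CANNTG, which includes CAGCTG, gave 55.3%, 30.7% and 59.7% in the same order. TGANTCA, the site of the AP-1 factors FOS and JUN, was found in 96 peaks (14.6%), compared with 4.05% of strong peaks with a gene (difference 10.6 points, 6.67 to 15.4). Weak peaks had it in 21.1%, which exceeded the widened interval (difference -6.46, -11.1 to -1.12). Most strong peaks with a gene have their listed TSS within 1000 bp, and the 756 farther away came closer. They had CAGCTG in 17.3%, a difference of 2.95 points (-1.13 to 7.06, not widened). CANNTG was found in 46.3% of them (difference 9.04, 3.81 to 14.2) and TGANTCA in 11.1% (difference 3.52, 0.0307 to 7.08).

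Other motifs differed in either direction. GGGCGG, the site of SP1 and its relatives, was present in 54 peaks (8.23%), compared with 34.0% of strong peaks with a gene (difference -25.7 points, -29.5 to -21.1) and 4.98% of weak peaks (difference 3.25, 0.0911 to 7.33). CCGGAAG, read by ETS factors, was found in 1 peak (0.152%), compared with 4.05% of strong peaks with a gene (difference -3.89, -5.14 to -2.08). CATTCC, contained in the site of TEAD factors, gave 9.45% compared with 5.64% (difference 3.81, 0.548 to 8.05). For CACGTG the shares were 1.52% and 4.01% (difference -2.49, -4.03 to -0.0155). GATAA, ACATTCCA, TGACGTCA and TGACGCAA did not differ beyond their intervals from either set. Against the 756 strong peaks with a gene farther than 1000 bp away, intervals were not widened. GGGCGG was found in 16.7% of those (difference -8.43, -11.8 to -5.01) and CCGGAAG in 1.19% (difference -1.04, -2.10 to -0.135). CATTCC, with 9.92% (-3.55 to 2.68 points), and CACGTG, with 2.51% (-2.53 to 0.558 points), did not differ beyond their intervals there. A match says only that the letters are in the window.

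**Figure D3:**
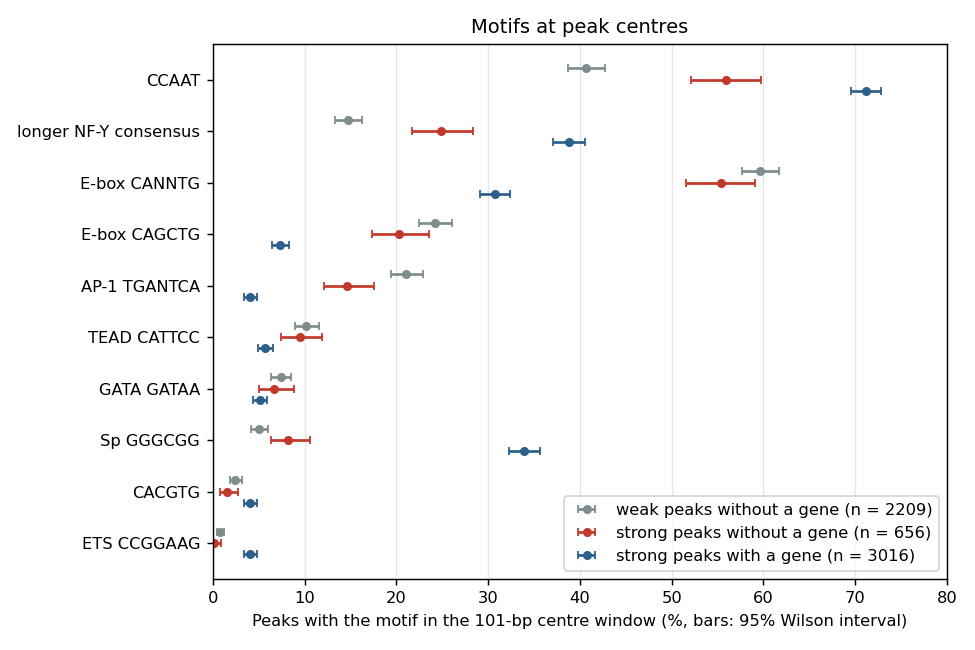
Percentage of peaks with each motif within 50 bp of the centre (x axis) by motif (y axis), with 95% Wilson intervals, in weak peaks without a gene, strong peaks without a gene and strong peaks with a gene. Strong peaks without a gene lie near the weak ones for CAGCTG. They lie between the other sets for CCAAT and GGGCGG, and for GGGCGG closer to the weak ones.

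Among the 656 peaks, the motifs were unevenly distributed between peaks with and without the box. CAGCTG was present in 86 of 289 peaks without CCAAT at the centre (29.8%) and in 47 of 367 with it (12.8%). This difference of 17.0 points (6.46 to 27.5, widened for 49 comparisons within the set) exceeded its error. TGANTCA was present in 41 of 151 peaks without CCAAT anywhere (27.2%) and in 55 of 505 with it (10.9%), a difference of 16.3 points (4.84 to 29.9). Split by CCAAT at the centre, as for CAGCTG above, TGANTCA was present in 19.4% without and 10.9% with the box. That difference of 8.48 points did not exceed its widened error (-0.698 to 18.2). The strongest peak without any box was in an intron of *Enox1*, with 131, 140 and 138 normalised reads (chr14:77484924-77485427, mean 136 ± 4.73, SD, n = 3). This level was nearly equal in all 3 libraries. By contrast, the 3 strongest peaks without CCAAT in the centre window alone were those nearest *Mir148a*, *Gm45218* and *Olfr288*, and they had 5, 2 and 3 boxes elsewhere in the peak.

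The positions of the peaks were determined with GENCODE M21. The centre was within 1000 bp of a transcript start in 93 peaks (14.2%), in an intron in 309 (47.1%), in an exon in 15 (2.29%) and between genes in 239 (36.4%). Of weak peaks without a gene, 6.56% were within 1000 bp of a transcript start, a difference of 7.61 points (4.91 to 10.6). Genes of any kind covered 63.4% of the strong and 62.5% of the weak peaks, which did not differ beyond the interval (-3.31 to 5.08 points). The centre was soft-masked in 7.32% of the strong and 8.01% of the weak peaks (-2.82 to 1.79 points). Compared with strong peaks with a gene, with 4.54%, the share was 2.77 points higher (0.846 to 5.13), but compared with those having the gene farther than 1000 bp away the difference was 0.0419 points (-2.68 to 2.83).

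As a description, the median mean was 41.3 normalised reads at transcript starts, 30.3 in introns, 28 in exons and 31 between genes. Of the 42 peaks reaching a mean of 100, 13 were at starts, 8 in introns and 21 between genes. CCAAT was in the centre window of 63.4% of peaks at starts (53.3 to 72.5), 51.8% in introns (46.2 to 57.3) and 59.0% between genes (52.7 to 65.0). The difference was 8.73 points between starts and all others (-2.19 to 18.7) and 7.22 points between intergenic and intronic peaks (-1.18 to 15.4), so neither exceeded its error. GGGCGG was found in 24.7% at starts and 5.51% elsewhere (difference 19.2 points, 6.996 to 36.2 after widening).

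In introns, the highest levels were found in *Rbfox2*, encoding a splicing regulator, in *Enox1* and in *Zfp608*. The *Rbfox2* peak had 116, 134 and 173 normalised reads (chr15:77214453-77215001, mean 141 ± 29.1, SD, n = 3) and 1 box. The *Zfp608* peak had 94, 151 and 144 (chr18:54901903-54902763, mean 130 ± 31.1) and 3 boxes. Replicate 1 was lowest in both. In exons the highest was in *Col6a3*, encoding a collagen VI chain of the muscle matrix, with 40, 59 and 77 (chr1:90775626-90776084, mean 58.7 ± 18.5). It was followed by *Gm13814* with a mean of 45 ± 10.5 and *Kremen1* with 43.7 ± 9.29.

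The 93 peaks at transcript starts belonged to 87 genes, and 89 of the starts were of protein-coding genes. In 90 cases the start was more than 10000 bp from the 5' end of its gene, at a median of 31795 bp and at most 428391 bp in *Mast4*. This distance follows from the rule, because the authors measured to the gene's start. The start lay inside the peak in 58 cases, the centre was within 250 bp in 67, and it was upstream in 68. The nearest transcript was itself annotated as protein-coding in 62 cases.

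CCAAT boxes at these starts lay mostly upstream. Of 144 boxes inside the 93 peaks, 108 (75%) were upstream of the start, at a median of -69.5 bp. In 2259 strong peaks within 1000 bp of their listed gene, 77.7% were upstream and the median was -68 bp. A box 40 to 120 bp upstream was found in 39 of 93 peaks (41.9%, 32.4 to 52.1) and in 53.2% of the listed peaks, a difference of -11.3 points (-21.0 to -0.914). Of the boxes in this interval, 26 of 48 (54.2%, 40.3 to 67.4) were on the strand of the transcript, compared with 53.0%.

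**Figure D4:**
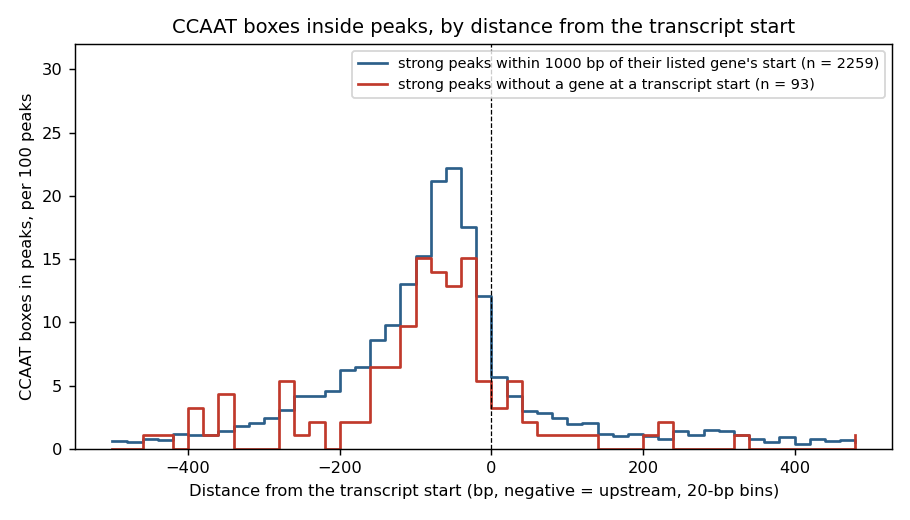
CCAAT boxes inside peaks per 100 peaks (y axis) by distance from the transcript start (x axis, negative upstream), for strong peaks within 1000 bp of their listed gene and for the 93 peaks without a gene at a transcript start. Both profiles rise just upstream of the start, with medians of -68 and -69.5 bp.

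The internal start of *Nfyc*, which encodes the NF-YC subunit of NF-Y itself, was the fourth strongest of this class. It had 146, 173 and 186 normalised reads (chr4:120815654-120816221, mean 168 ± 20.4, SD, n = 3) and 5 boxes, of which those in the sequence shown are 94 and 135 bp upstream. The only peak listed for *Nfyc* had 63, 64 and 96 (chr4:120824993-120825428, mean 74.3 ± 18.8). Its centre was 6362 bp from the listed start. The peak at the internal start was higher than this listed peak in every library.

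For 34 of the 93 peaks, the same gene also had a listed peak. The peak at the internal start was above the strongest listed one in 19 cases, taking its lowest against the other's highest library, and below it in 7, while the ranges overlapped in 8. The internal peaks had to reach 20 normalised reads and the listed ones did not, so the balance of these counts is partly set by the selection. Listed peaks lay from 31 bp (*Focad*) to 9177 bp (*Map3k4*) from the listed start, so not all are at that start. Values are not corrected for peak length. The genes that follow were chosen after their values were seen. At *Ptprs*, a receptor tyrosine phosphatase gene, the internal start had 141, 142 and 149. The listed peak, 1894 bp from the listed start, had 11, 21 and 14. At *Fbxo46*, an F-box gene, the values were 104, 83 and 79 against 9, 6 and 6. At *Cic*, encoding the repressor Capicua, an internal start had 119, 89 and 113 and the listed peak 832, 1083 and 1075. *Runx1*, encoding a transcription factor expressed in activated MuSCs, had 38, 47 and 49 internally and 32, 44 and 63 at the listed peak, where the ranges overlapped.

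**Figure D5:**
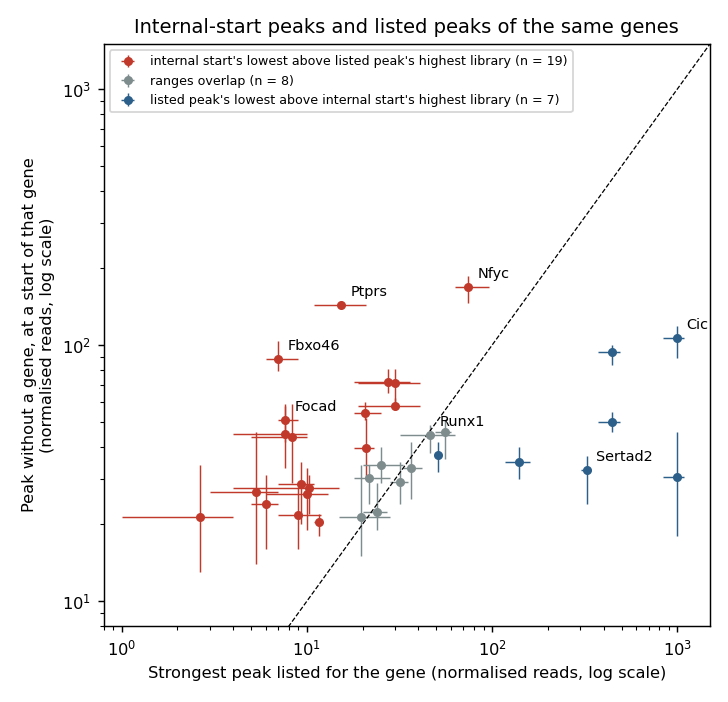
Mean normalised reads of peaks without a gene at internal transcript starts (y axis, log scale) against the strongest peak listed for the same gene (x axis, log scale), for 34 peaks, with bars from the lowest to the highest of the 3 libraries. In 19 pairs the lowest library of the internal start is above the highest of the listed peak, in 7 the reverse holds, and in 8 the ranges overlap.

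A few further internal starts were picked by hand after the values were seen, and stand for no group of genes. *Hmgb1*, encoding a nuclear DNA-binding protein, had 151, 121 and 132 normalised reads (chr5:149052964-149053301). *Neb*, encoding the giant thin filament protein nebulin, had 33, 65 and 54 at one start and 20, 47 and 32 close by (chr2:52335671-52335931 and chr2:52335248-52335436). The transcript at the stronger *Neb* start is annotated as a processed transcript and not as protein-coding. *Tead4*, a transcription factor gene of muscle differentiation, had 31, 43 and 56 (chr6:128275628-128276024). Replicate 1 was the lowest at *Neb* and *Tead4* and the highest at *Hmgb1*.

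Of 127 genes on 6 lists, 7 (5.51%) were linked to 1 of the 656 peaks, by a start within 1000 bp, by lying in the gene or, between genes, by the nearest start. By the same rule, 436 of 21911 protein-coding genes (1.99%) were linked. Weak peaks without a gene were linked to 25 of the 127 genes (19.7%) and to 5.70% of protein-coding genes. The lists were chosen with earlier results known, so these shares are a description only. Among 31 myogenic and quiescence genes there were 2. *Mef2a*, a partner of the myogenic factors, had 74, 103 and 83 normalised reads 12629 bp upstream of a start (chr7:67385239-67385735, mean 86.7 ± 14.8, SD, n = 3), with 1 box close to the centre, shown above. *Megf10*, a surface receptor gene of MuSCs, had 27, 21 and 27 in an intron without a box (chr18:57267049-57267290). Among 18 signalling genes there were also 2. *Igf1r*, the receptor gene for insulin-like growth factors, had 92, 84 and 95 in an intron (chr7:68129019-68129368, mean 90.3 ± 5.69) and 4 boxes, and *Fgfr4*, a receptor gene for fibroblast growth factors, had 27, 19 and 29 in a region 15560 bp from its nearest start, without a box.

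Among 17 matrix and adhesion genes, *Col4a1*, a basement membrane collagen gene, had 27, 30 and 23 in an intron (chr8:11215309-11215503), with 1 box. *Sparc*, encoding a matrix glycoprotein, was nearest to a peak with 22, 27 and 14 (chr11:55392580-55392803, mean 21 ± 6.56). Its 7 boxes include 3 copies of the palindrome CCAATTGG, each counted once on either strand. With *Nfyc*, 1 of the 7 NF-Y and Sp genes was linked. Neither the 27 chromatin genes nor the 27 cell cycle genes had any of the 656 peaks, where 1.99% of 27 genes is less than 1 gene. Weak peaks without a gene numbered 9 at chromatin and 2 at cell cycle genes. *Kat6b* and *Hdac4* were not on these lists. A strong listed peak was present at 13 chromatin, 13 cell cycle, 9 myogenic, 7 NF-Y and Sp, 3 matrix and 2 signalling genes. Listed peaks were assigned by the authors' distance rule and not by the links used here. Their share over all protein-coding genes was not determined, so these counts are a description only.

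Most peaks lay apart from the others of this set, since 578 had no other of the 656 within 10000 bp, measured between centres. There were 36 pairs and 2 groups of 3. Counting NF-YA peaks of any set, 221 of the 656 (33.7%) had another within 10000 bp. This share was 27.0% in weak peaks, 37.8% in strong peaks with a gene and 36.2% in all peaks. The group around the *Mir148a* peak spanned 7986 bp, with 105, 123 and 106 normalised reads at chr6:51170913-51171326 and 97, 98 and 98 at chr6:51172867-51173270 beside the strongest one. These had 3 boxes each. The other group, between genes near *Bahcc1*, spanned 11323 bp, with means of 124 ± 36.2, 59 ± 9.54 and 182 ± 13.7 (SD, n = 3). In both groups the middle peak was the lowest, and further weak peaks lay between the strong ones, with means of 5 to 19.3. By chromosome, the most peaks were on chromosome 11, with 67 (10.2%), where 10.1% of strong peaks with a gene also lay. Chromosome X had 8 (1.22%), compared with 1.99% of strong peaks with a gene.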

How the data were processed

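CUT&RUN of NF-YA in wild type MuSCs was analysed in 3 libraries, described as biological replicates. The authors trimmed the reads with Trimmomatic 0.39, aligned them with STAR 2.7.9a to mm10, removed duplicates with Picard 2.25.5, called peaks with MACS2 in each library against its IgG, unified the peaks, counted reads with featureCounts and normalised with DESeq2 1.30.0. As deposited, each value is a score, namely the read number of a peak after size-factor scaling, rounded to a whole number and without length correction (normalised reads). Such scaling hides a shift common to all peaks.

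One read was worth 0.669, 1.48 and 1.02 normalised reads in replicates 1, 2 and 3, estimated from the whole numbers that occur, which gave about 39627, 21056 and 29169 reads in the 656 peaks. A count of 3 reads corresponded to 2.01, 4.43 and 3.06 normalised reads. Single counts were not recovered, so no count model was used, and intervals cover sampling error of peaks only. Peaks share libraries and are not replicates, so no p-values are given.

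Table coordinates were read as counted from 0 and are printed from 1. Sequence and soft-masking came from RefSeq GRCm38.p6, and transcripts, exons and genes from GENCODE M21. A peak belonged to the first fitting class of start (centre within 1000 bp), exon, intron and between genes. Shares carry 95% Wilson intervals. Differences carry Newcombe's 95% intervals, paired for the flanks and Bonferroni-widened for families of 22 and 49 comparisons, and were taken to exceed their error if the interval excluded 0. The main 7 differences were not adjusted. Named were the 10 highest peaks, the 3 highest per class, the 3 highest without CCAAT in the window, peaks at the limit and those linked to 6 gene lists, with exceptions stated. The peaks, motifs, lists and tests were chosen with earlier results of these data known. Alternatives covered the limit, libraries, windows, consensus, distance and repeat definitions. Functions were tested on simulated data. Calculations ran in Python 3.11.15 (pandas 2.3.3, pysam 0.24.0, numpy 2.4.6, scipy 1.17.1, matplotlib 3.10.9) and samtools 1.23.1.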

Additional observations from a re-analysis of the deposited data

How the results depend on the processing

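Of 80 alternatives to 8 results, 74 stayed on the same side of the threshold or within the interval, and 0 turned the direction of a difference that exceeded its error. The gene body difference, which did not exceed its error, was -0.786 points with a limit of 40. When peaks within 1000 bp of any transcript start were left out, the difference in CCAAT share from strong peaks with a gene became -3.11 percentage points. Compared only with strong peaks whose gene was farther than 1000 bp, the difference in soft-masked centres became 0.0419 points. When soft-masking was judged over the whole peak, taking those masked over most of it, the difference of strong from weak peaks without a gene became -2.16 points (-3.23 to -0.761), for which the cause was not tested. Restricted to means of at least 40, the CV had a median of 16.0%, and it was 14.8% to 20.2% when each replicate was left out, where the SD rests on a pair of values. Leaving out each replicate gave CCAAT differences of 13.9 to 16.3 points from weak peaks, -16.4 to -13.9 from strong peaks with a gene and 43.2 to 44.2 from the flanks. It gave 6.56 to 8.16 points for transcript starts, -1.45 to -0.138 and 2.34 to 3.23 for soft-masking and 0.226 to 3.12 for gene bodies.

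The CCAAT difference from weak peaks was 7.95 points within 25 bp of the centre and 29.8 over the whole peak. The whole-peak value sets a median length of 295 bp against 142 bp. Per kb of peak, the strong peaks held 4.10 boxes and the weak ones 4.07. The difference at transcript starts was 3.32 points with a limit of 10 and 13.8 with a limit of 40.

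The alternatives that used CCAAT anywhere in the peak, peaks of 200 to 400 bp, distant listed peaks or the removal of the 2 single-library peaks were chosen after seeing the data. No paired analysis was possible because values existed here for a single group, NF-YA, and pairing needs another. The planned replicate block was therefore not run. Replicate 2, with about 23 reads in the median peak, limits the precision of single levels.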
